A study of Mus musculus with 8 samples.

Results

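The 10 genes described here are readouts and components of the WNT and beta-catenin pathway. They were taken as a named list (Sp5, Axin2, Lef1, Tcf7, Tcf7l1, Cdx1, Nkd1, Ctnnb1, Rnf43 and Znrf3), and all 10 were found, each in a single row, among the 17812 gene identifiers of the series. Total RNA was sequenced in mouse embryonic stem cells of the line ES-E14TG2a (strain 129/Ola). The unedited cells (WT) were compared with cells in which CRISPR/Cas9 had removed an enhancer, giving the lines E1-KO, E2-KO and E3-KO, with 2 biological replicates in each of the 4 groups. All 8 samples, WT included, came from gelatin-coated plates without feeder cells and from medium with FBS, LIF, the GSK3 inhibitor CHIR99021 and the MEK inhibitor PD0325901. The question behind the series was how promoters and enhancers associate in the control of Sox2 function. The labels give neither the places of the deleted enhancers nor the number of clones behind a line, and no edited cells with intact enhancers were analysed here, so that enhancer loss and differences of clone or editing cannot be told apart.

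In the absence of a WNT signal, a complex built on Axin and Apc holds beta-catenin for phosphorylation by GSK3, which marks it for destruction. When GSK3 is blocked, by WNT ligands or by an inhibitor, beta-catenin persists and joins the TCF/LEF proteins on DNA, where target genes are then transcribed. In mouse embryonic stem cells an inhibitor of GSK3 is used to hold the naive state, and the relief of repression by Tcf7l1 is known as a main part of that effect.

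Values are FPKM, fragment counts scaled to the length of the transcript and to the size of the library, which allows levels of different genes to be compared. The summed FPKM of all genes lay between 454974 and 532007 per sample, and absolute read depth is unknown. Steps between low values put the relative depth at 0.785 to 1.013 of that of WT replicate 1. In each other sample between 7.5% and 15.7% of the low values compared lay at the ratio used, so these depths are rough. Fold changes were fitted with limma-trend on log2(FPKM + 1), which understates changes of low genes, over the 11267 genes whose mean reached 1 FPKM. A gene counts as called when its adjusted p-value (Benjamini-Hochberg) is below 0.05. Over all tested genes the medians against WT (log2) were -0.062, -0.076 and -0.151 for E1-KO, E2-KO and E3-KO, and median-ratio scaling between samples moved the last to 0.003. Sox2 was at 133 ± 4.05 FPKM in WT, against 59.2 ± 1.58, 106 ± 11.3 and 94.4 ± 4.79 FPKM in the knockouts in the same order (SD, n = 2 each). The 8 stem cell markers examined (Pou5f1, Nanog, Sox2, Zfp42, Esrrb, Klf4, Fgf4 and Tdgf1) summed to between 1627 and 2175 FPKM in every sample, but single markers changed: 4 of the 8 were called lower in E1-KO, 2 lower and 2 higher in E2-KO, and 4 lower in E3-KO. Of all tested genes, 23%, 22% and 30.8% were called lower in the respective knockouts and 15%, 14.2% and 13.9% higher. The count lower in E2-KO was near that share. Klf4, a factor of the naive state, fell in all knockouts (log2 fold changes -0.97, -1.17 and -1.08), from 159 and 181 FPKM in WT to between 68.9 and 87.9. Sox2, Esrrb and Fgf4 also lay below WT in every knockout sample. In the other direction, Pou5f1 and Zfp42 lay above WT in every knockout sample. Their means were 121%, 135% and 123% of WT for Pou5f1, and 117%, 145% and 105% for Zfp42. Nanog and Tdgf1 overlapped with WT. Of 6 fibroblast markers, Col1a1, Col1a2, Col3a1, Postn and Lum were under 1 FPKM in every sample. The other marker of that list, Thy1, rose in all knockouts (1.03, 0.51 and 1.06), from 0.840 and 0.695 FPKM in WT to between 1.23 and 2.85, and the sum of the list went from 1.14 to 1.57 FPKM in WT to 2.36 to 3.76 in the knockout samples. Thy1 reached the mean of 1 FPKM needed for testing through the knockouts. The part of these marker changes in the results below was not tested.

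Most of the 10 genes were lower in the enhancer knockouts. For 8 of them all 6 knockout samples lay below both WT samples, for Tcf7l1 all 6 lay above, and for Nkd1 the groups overlapped. Among all 17721 genes, 21.2% had all 6 knockout samples below WT and 12.1% had them above. The filter on low values was passed by 7 of the 10 genes, and left out Lef1, Nkd1 and Rnf43. Sp5 passed it through WT, since its mean over the knockout samples was 0.845 FPKM. A fit of all genes above 0 was therefore used to count over the 10 genes. In E1-KO it called 7 of the 10 lower and 1 higher, where 13.8% and 8.92% of all genes were called lower and higher. In E2-KO it called 8 lower and 1 higher, where the shares of all genes were 13% and 8.14%. In E3-KO it called 7 lower and 0 higher, where the shares were 19.1% and 10%. The filtered fit called 5, 6 and 6 of the 7 tested genes lower and 1 higher in each comparison, and its shares of all genes were 23%, 22% and 30.8% lower and 15%, 14.2% and 13.9% higher. Those shares moved with the scaling: in E2-KO 1595 genes higher and 2475 lower became 2002 and 1966 under median-ratio scaling, and in E3-KO 1566 and 3469 became 2358 and 2369. The listed genes were then called 4, 6 and 5 times lower and 1 time higher in each comparison. The 3 comparisons share the WT samples, so their likeness is not independent evidence. In bulk RNA, fewer cells with an active pathway and less RNA per cell cannot be told apart.

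**Figure D1:**
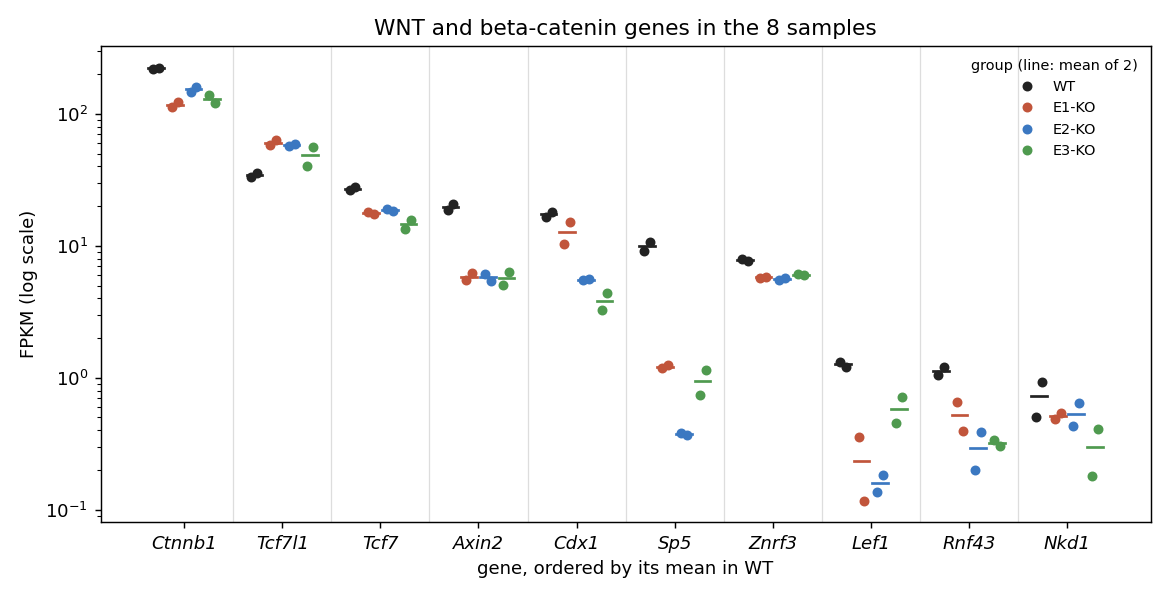
Each point is the FPKM value of a gene in a sample on a log axis, and short lines mark the mean of the 2 replicates of a group. Sp5 sits near 10 FPKM in WT and at or under 1.25 FPKM in every knockout sample, while Tcf7l1 is the gene whose knockout samples all lie above WT.

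In WT the order of the levels ran from Ctnnb1 (223 ± 3.12 FPKM) over Tcf7l1 (34.5 ± 1.31), Tcf7 (27.0 ± 1.01), Axin2 (19.7 ± 1.29), Cdx1 (17.4 ± 0.969), Sp5 (9.93 ± 1.21) and Znrf3 (7.82 ± 0.264) to Lef1 (1.26 ± 0.0872), Rnf43 (1.13 ± 0.108) and Nkd1 (0.721 ± 0.304; SD, n = 2 each). Neighbours in this order did not overlap in WT, apart from Lef1 and Rnf43, whose replicates interleaved.

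Sp5, a zinc finger transcription factor of the Sp family and a direct target of beta-catenin in many tissues, had the largest changes of the 7 tested genes. It was at 9.07 and 10.8 FPKM in WT, at 1.18 and 1.25 in the E1-KO samples, at 0.380 and 0.368 in those of E2-KO, and at 0.741 and 1.15 in those of E3-KO. The knockout means were 12.2%, 3.77% and 9.52% of the WT mean, and no knockout sample came near WT. Against WT, Sp5 had log2 fold changes of -2.30, -2.99 and -2.49 (standard error 0.162 each, limma-trend adjusted p-values 6.17e-05, 4.02e-05 and 4.39e-05). Since Sp5 passed the filter through WT, the fit of all genes above 0 is given too. There the fold changes were the same and the calls held with larger limma-trend adjusted p-values (0.00103, 0.000848 and 0.000553). Both E2-KO samples lay below all samples of the other knockouts. That difference did not pass in limma-trend against E1-KO (-0.69, 95% interval -1.05 to -0.32, adjusted p = 0.0861) or against E3-KO, where E3-KO was higher by 0.49 (95% interval 0.13 to 0.86, adjusted p = 0.0713). With a pseudocount of 0.1, which gives low values more weight, both passed (limma-trend adjusted p-values 0.0467 and 0.0258). With that pseudocount and all genes above 0, E2-KO against E1-KO did not pass (limma-trend adjusted p = 0.11) and E3-KO against E2-KO did (0.0488).

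The Sp5 gene (ENSMUSG00000075304) spans positions 70474923 to 70477729 of chromosome 2, and the Axin2 gene (ENSMUSG00000000142) positions 108920349 to 108950783 of chromosome 11, both read from the plus strand (GRCm38). The bases before their start sites are shown because these genes had the largest falls among listed genes called in all 3 knockouts, and because TCF/LEF proteins bind short sequences beginning CTTTG. Of the 32851 promoters in the RefSeq table, each of 300 bases (250 before the start and 50 after it), 3.73% held CTTTGAT on either strand. The same share was 5.14% for CTTTGAA, 5.85% for CTTTGTT, 3.63% for CTTTGTA and 16.9% for any of these 4. Matches to them are in capitals. The sequences, the 250 bases before each start, are those of RefSeq for GRCm38.p6, chr2:70474673-70474922 and chr11:108920099-108920348, both on the plus strand.
Sp5: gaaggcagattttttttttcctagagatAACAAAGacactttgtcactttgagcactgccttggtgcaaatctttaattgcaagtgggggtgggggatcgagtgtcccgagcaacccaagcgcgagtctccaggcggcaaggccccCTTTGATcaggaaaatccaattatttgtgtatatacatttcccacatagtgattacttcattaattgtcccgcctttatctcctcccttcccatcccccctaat
Axin2: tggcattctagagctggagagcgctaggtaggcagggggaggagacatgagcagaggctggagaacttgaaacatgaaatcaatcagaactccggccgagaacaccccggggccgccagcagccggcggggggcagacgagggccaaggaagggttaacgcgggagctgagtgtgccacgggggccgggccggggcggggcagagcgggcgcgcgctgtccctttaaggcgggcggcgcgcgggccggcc
The Sp5 stretch holds CTTTGAT from 104 to 98 bases before the start, and AACAAAG, which is CTTTGTT on the opposite strand, from 222 to 216 bases before it. The Axin2 stretch holds none of the 4 motifs. Its G and C content was 69.2%, against 46.0% for Sp5. The table had 14 promoters for 8 of the 10 genes, and 2 of the 14 held a match: that of Sp5 and 1 of the 4 for Lef1. A match of these letters is a description and not evidence of binding, and sequence outside the 300 bases was not examined.

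Axin2, Znrf3, Rnf43 and Nkd1 restrain the pathway. Axin2, a scaffold of the destruction complex and a widely used readout of beta-catenin activity, was at 18.8 and 20.6 FPKM in WT, 5.48 and 6.19 in the E1-KO samples, 6.14 and 5.42 in those of E2-KO, and 5.07 and 6.29 in those of E3-KO. The knockout means lay within 1 percentage point of each other, at 29.6%, 29.3% and 28.8% of WT. In log2 terms Axin2 was at -1.60, -1.61 and -1.64 against WT (standard error 0.138 each, limma-trend adjusted p-values 0.000153, 0.000145 and 8.75e-05). Between the knockouts no difference passed the test, and the 95% intervals reached from -0.32 to 0.30 for E2-KO against E1-KO, -0.35 to 0.28 for E3-KO against E1-KO and -0.34 to 0.29 for E3-KO against E2-KO.

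Znrf3 and Rnf43 are ubiquitin ligases that take Frizzled receptors off the cell surface. Znrf3 was at 8.01 and 7.64 FPKM in WT, 5.74 and 5.79 in the E1-KO samples, 5.51 and 5.75 in those of E2-KO, and 6.10 and 6.03 in those of E3-KO. All knockout samples were below WT, with log2 fold changes of -0.38, -0.41 and -0.32 (standard error 0.115 each, limma-trend adjusted p-values 0.0284, 0.0219 and 0.0474). These modest falls depended on the scaling. Median-ratio scaling gave -0.32 in E1-KO (limma-trend adjusted p = 0.0546) and -0.17 in E3-KO (0.262), and quantile normalization gave -0.24, -0.26 and -0.09, none of which passed (limma-trend adjusted p-values 0.121, 0.1 and 0.555). The calls of Znrf3 were also lost, with limma-trend adjusted p-values between 0.0808 and 0.197, on leaving out any replicate of the groups compared, apart from E2-KO replicate 2 (0.0456). Rnf43, at low levels, had 1.05 and 1.20 FPKM in WT, 0.653 and 0.392 in the E1-KO samples, 0.200 and 0.388 in those of E2-KO, and 0.338 and 0.304 in those of E3-KO. In the fit of all genes above 0 its log2 fold changes were -0.49, -0.72 and -0.68 (standard error 0.113 each, limma-trend adjusted p-values 0.0261, 0.00806 and 0.00657). With a pseudocount of 0.1 in that fit, E1-KO no longer passed (-1.01, limma-trend adjusted p = 0.0868).

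Nkd1, an inhibitor that binds Dishevelled, was the gene of the list without a called change. It was at 0.507 and 0.936 FPKM in WT, 0.482 and 0.538 in the E1-KO samples, 0.428 and 0.641 in those of E2-KO, and 0.181 and 0.411 in those of E3-KO. The WT replicates were far apart, and WT replicate 1 lay inside the range of the knockouts. Fitted with all genes above 0, Nkd1 was at -0.18, -0.16 and -0.40 on the log2 scale (limma-trend adjusted p-values 0.449, 0.511 and 0.0853), with 95% intervals of -0.53 to 0.17, -0.51 to 0.19 and -0.76 to -0.05. A change of Nkd1 was not detectable at this level and number of samples.

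The TCF/LEF family, which carries beta-catenin to DNA, shifted in its make-up. Tcf7 (also named TCF1), an activating member, fell, while Tcf7l1 (TCF3), which acts mainly as a repressor in embryonic stem cells, rose. Tcf7 was at 26.3 and 27.8 FPKM in WT, 17.9 and 17.6 in the E1-KO samples, 19.0 and 18.4 in those of E2-KO, and 13.4 and 15.8 in those of E3-KO. All knockout samples were below WT, with the lowest in E3-KO. For Tcf7 the log2 fold changes were -0.58, -0.51 and -0.85 (standard error 0.109 each, limma-trend adjusted p-values 0.00375, 0.00718 and 0.000488). Without WT replicate 2, Tcf7 in E2-KO did not pass (-0.47, limma-trend adjusted p = 0.0644).

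Tcf7l1 was at 33.6 and 35.4 FPKM in WT, 57.9 and 63.3 in the E1-KO samples, 57.5 and 59.4 in those of E2-KO, and 40.6 and 56.6 in those of E3-KO. Its mean was 1.76, 1.70 and 1.41 times that of WT in the respective knockouts. The E3-KO replicates were the farthest apart. For Tcf7l1 the log2 fold changes were 0.80, 0.75 and 0.47 (standard error 0.144 each, limma-trend adjusted p-values 0.00325, 0.00471 and 0.0272). In E3-KO the call was lost without E3-KO replicate 2, where the change was 0.23 (limma-trend adjusted p = 0.131), and without WT replicate 1 or 2 (0.127 and 0.0877). It was also not made in the fit of all genes above 0 (0.47, limma-trend adjusted p = 0.0557). Tcf7l1 lies on chromosome 6 (72626378 to 72789254, minus strand, GRCm38), where the median over 536 tested genes in E3-KO was -0.62 on the log2 scale, against -0.13 for genes elsewhere. The corresponding medians were -0.05 and -0.06 for E1-KO, and -0.07 and -0.08 for E2-KO. The part of this chromosome-wide shift in the level of Tcf7l1 in E3-KO was not tested.

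Lef1, another activating member, was low throughout. Its values were 1.32 and 1.20 FPKM in WT, 0.353 and 0.117 in the E1-KO samples, 0.137 and 0.184 in those of E2-KO, and 0.454 and 0.709 in those of E3-KO. All knockout samples were below WT, and both E3-KO samples were above the 4 samples of the other knockouts. Lef1 changed in the fit of all genes above 0 by -0.88, -0.96 and -0.52 on the log2 scale (standard error 0.12 each, limma-trend adjusted p-values 0.00487, 0.00413 and 0.02). The higher level in E3-KO did not pass against E1-KO (0.36, limma-trend adjusted p = 0.0923) or E2-KO (0.44, limma-trend adjusted p = 0.0738). With a pseudocount of 0.1, Lef1 in E3-KO did not pass against WT (-1.02, limma-trend adjusted p = 0.107).

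The ratio of the Tcf7l1 to the Tcf7 level was 1.28 in both WT samples. It was 3.23 and 3.60 in the E1-KO samples, 3.04 and 3.22 in those of E2-KO, and 3.03 and 3.59 in those of E3-KO. The ratio does not depend on scaling each sample by a single factor, though quantile normalization can change it. All 6 knockout samples lay above 3. Tcf7l1 lies on chromosome 6 and Tcf7 on chromosome 11, and the part of the chromosome 6 shift in the E3-KO ratio was not tested. With Tcf7l2, the fourth member of the family, the summed level was 69.9 FPKM on average in WT and 84.1, 81.8 and 72.2 in the knockouts. Tcf7l1 made up 49.3% of this sum in WT and 72.1%, 71.5% and 67.0% in E1-KO, E2-KO and E3-KO. Tcf7l2 itself was not called in any knockout (log2 fold changes -0.35, -0.61 and 0.22, limma-trend adjusted p-values 0.317, 0.0978 and 0.514).

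**Figure D2:**
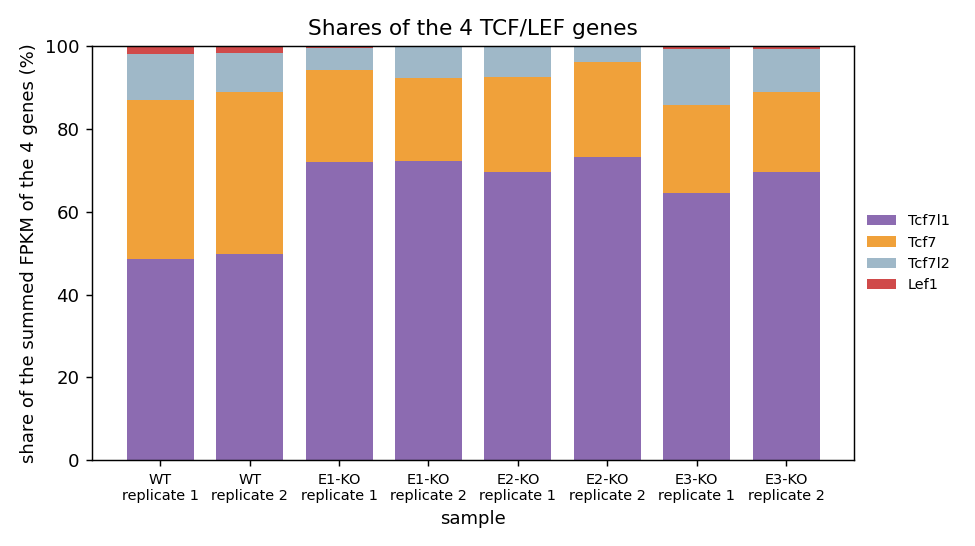
Bars give, for each sample, the share of each of the 4 TCF/LEF genes in their summed FPKM. The share of Tcf7l1 is 48.7% and 49.9% in the WT samples and between 64.5% and 73.3% in the knockout samples, while that of Tcf7 is 38.2% and 39.1% in WT and at most 22.9% in the knockouts.

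Ctnnb1 encodes beta-catenin, which is also a part of cell junctions and is controlled mainly through the stability of its protein, which was not measured here. Its RNA was at 221 and 225 FPKM in WT, 112 and 123 in the E1-KO samples, 146 and 161 in those of E2-KO, and 139 and 122 in those of E3-KO. The WT samples differed little from each other and lay well above all knockout samples. Ctnnb1 had log2 fold changes of -0.92, -0.54 and -0.77 (standard error 0.108 each, limma-trend adjusted p-values 0.000479, 0.00569 and 0.000759). The call in E2-KO was not made without WT replicate 2 (-0.52, limma-trend adjusted p = 0.05). E2-KO was above E1-KO by 0.38 (95% interval 0.14 to 0.62), which did not pass over all genes (limma-trend adjusted p = 0.121).

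Cdx1, a caudal-type homeobox factor of axial patterning and a known WNT target, was the gene whose response differed between the lines. It was at 16.7 and 18.0 FPKM in WT, 10.3 and 15.3 in the E1-KO samples, 5.50 and 5.58 in those of E2-KO, and 3.27 and 4.42 in those of E3-KO. The E1-KO samples lay below WT but above those of the other knockouts. Against WT the log2 fold change was -0.43 in E1-KO, which did not pass (standard error 0.184, limma-trend adjusted p = 0.0915), -1.49 in E2-KO (adjusted p = 0.00065) and -1.93 in E3-KO (adjusted p = 0.00013). Tested directly with limma-trend, E3-KO was below E1-KO by a log2 difference of -1.5 (95% interval -1.91 to -1.08, adjusted p = 0.000737). E2-KO was below E1-KO by -1.05 (95% interval -1.47 to -0.64, adjusted p = 0.0438), a call that was not made in the fit of all genes above 0 (adjusted p = 0.139), in that fit with a pseudocount of 0.1 (adjusted p = 0.11), or on leaving out any replicate of these groups (differences from -1.31 to -0.79, adjusted p from 0.0785 to 0.182). Without E1-KO replicate 2 the fall of Cdx1 in E1-KO was called (-0.69, limma-trend adjusted p = 0.0310). Cdx1 was the single listed gene called between knockouts. The comparison of E2-KO with E1-KO called 0.834% of all tested genes (0.346% lower), and that of E3-KO with E1-KO 25.8% (16.4% lower). Between E3-KO and E2-KO 15.6% of all genes were called and 0 of the 7 tested genes of the list, of which Sp5, Tcf7 and Cdx1 had an unadjusted p under 0.05 (0.0139, 0.0117 and 0.0392).

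**Figure D3:**
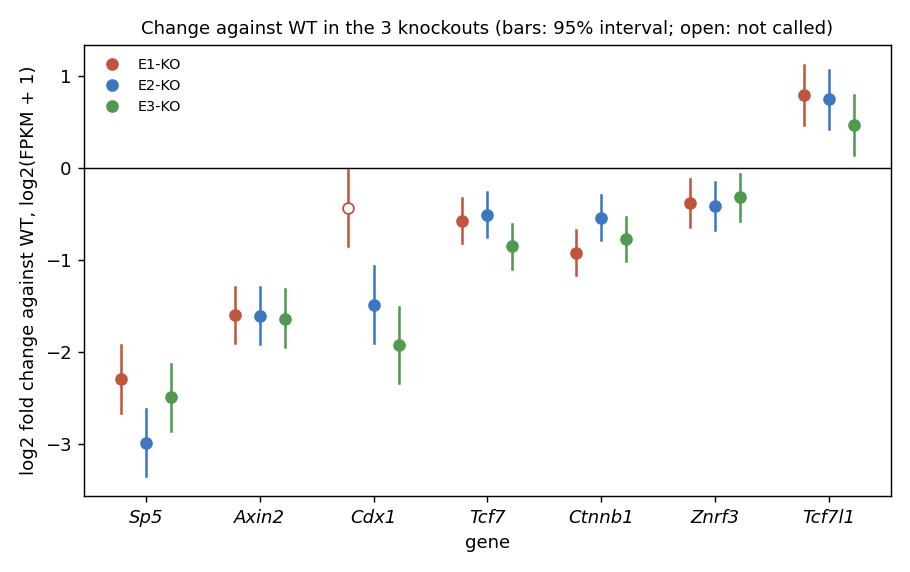
Points are log2 fold changes against WT for the 7 genes that passed the filter, bars are 95% intervals, and an open point marks a change that was not called. Sp5, Axin2, Tcf7, Ctnnb1 and Znrf3 lie below 0 and Tcf7l1 above 0 in all 3 knockouts, and Cdx1 in E1-KO is the open point.

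Across the 8 samples the patterns most like that of Sp5, among 8394 genes averaging 5 FPKM or more, were those of Tmem123, Gpx2, Kif13b and Pltp (Pearson r of log2(FPKM + 1) 0.996, 0.995, 0.994 and 0.994). For Axin2 they were Nid2, Rbfox2, Kctd3 and Afap1 (0.996, 0.995, 0.994 and 0.994, among 8393 genes). These correlations mostly restate the distance between WT and the knockouts, with 2 samples to a group. Sp5 and Axin2 had an r of 0.974 with each other. With Sp5, r was 0.963 for Znrf3 and 0.764 for Cdx1, and it was -0.813 for Tcf7l1.

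The rest of the pathway was examined through a list of 123 genes by role, of which 119 were in the files and 70 passed the filter. Of these 70, 28 fell and 9 rose in E1-KO, 22 and 6 did so for E2-KO, and 30 and 11 for E3-KO. The shares that fell were 40%, 31.4% and 42.9%, where 23%, 22% and 30.8% of all tested genes fell. The shares that rose, 12.9%, 8.57% and 15.7%, lay near or below those of all tested genes (15%, 14.2% and 13.9%). The counts by role that follow are small and are to be read beside these shares of all tested genes. Their median log2 fold changes were -0.22, -0.22 and -0.24, against -0.062, -0.076 and -0.151 for all tested genes. Median-ratio scaling gave 23 lower and 9 higher, 18 and 8, and 24 and 14, where it called 19.2%, 17.5% and 21% of all genes lower and 18.3%, 17.8% and 20.9% higher.

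None of the 18 WNT ligands in the files passed the filter, and 15 were under 1 FPKM in every sample. The fit of all genes above 0 called 8.92%, 8.14% and 10% of all genes higher in the respective knockouts. Of the 18 ligands it called 2, 1 and 3 higher and 0 lower. The most abundant, Wnt7b, had 0.855 and 0.712 FPKM in WT, 0.498 and 0.513 in the E1-KO samples, 0.734 and 0.544 in those of E2-KO, and 2.35 and 1.44 in those of E3-KO. Among genes that process ligands, Porcn, the acyltransferase that lipidates WNT proteins, rose in all 3 knockouts. It was at 1.49 and 2.00 FPKM in WT, 8.09 and 7.24 in the E1-KO samples, 7.27 and 5.64 in those of E2-KO, and 3.62 and 4.34 in those of E3-KO (log2 fold changes 1.66, 1.44 and 0.86, limma-trend adjusted p-values 0.00024, 0.000481 and 0.00326). Wls, the carrier that takes WNT proteins to the cell surface, fell in E1-KO and E2-KO (-0.94 and -0.80, limma-trend adjusted p-values 0.00155 and 0.00349) and was at -0.29 in E3-KO (adjusted p = 0.135). Notum, a secreted enzyme that removes the lipid and is itself a WNT target, fell in E1-KO and E3-KO (-0.91 and -0.93) and was at -0.34 in E2-KO (limma-trend adjusted p = 0.0755). Tmed2, a cargo protein of the secretory route, fell in E1-KO (-0.37).

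Of 11 tested receptors and co-receptors 4, 6 and 7 fell in the respective knockouts (E1-KO, E2-KO, E3-KO), which is 36.4%, 54.5% and 63.6% against 23%, 22% and 30.8% of all tested genes, and 0 rose in any of them (0 also under median-ratio scaling and quantile normalization). The WNT co-receptor Lrp5 fell by 0.56, 0.97 and 0.76 on the log2 scale, from 16.0 ± 1.55 FPKM in WT to 10.5 ± 0.0959, 7.65 ± 0.114 and 9.03 ± 1.41 (SD, n = 2 each). Fzd10, a Frizzled receptor, had log2 fold changes of -0.49, -0.69 and -0.78, and Ror2, a receptor tyrosine kinase for WNT ligands, of -0.44, -0.77 and -0.67. The call of Ror2 in E1-KO was lost under median-ratio scaling (limma-trend adjusted p = 0.0656). Lrp6 fell in E3-KO (-0.95) and E2-KO (-0.34, not passing under median-ratio scaling with a limma-trend adjusted p of 0.108) and was at -0.11 in E1-KO (0.468). It lies on chromosome 6, and the part of the shift of that chromosome in E3-KO was not tested. The Frizzled receptor gene Fzd8, chosen after its values were seen, fell by 0.56, 0.55 and 0.75. Lgr4, an R-spondin receptor and the single tested gene of its group, fell in E3-KO (-0.72).

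Of 7 tested secreted or membrane inhibitors, Dkk3 fell in all knockouts (-1.25, -1.31 and -1.39), from 3.05 ± 0.226 FPKM in WT to between 0.488 and 0.809 in the knockout samples. It passed the filter through WT, and the fit with every gene above 0 called it too (limma-trend, adjusted p-values 0.00186, 0.00202 and 0.001). Sfrp5 was higher in all knockouts (1.23, 1.64 and 0.84), from 0.153 ± 0.106 FPKM in WT to means of 1.72, 2.58 and 1.08. It passed the filter through the knockouts, so that a fall could not have been called for it. Apcdd1 fell (-0.72) and Sfrp1 rose (0.50) in E3-KO. Among 5 genes for Dishevelled proteins and their regulators, Dvl2, which passes the signal on from Frizzled, fell from 41.6 ± 0.881 FPKM to 23.6 ± 0.859, 25.9 ± 0.965 and 19.2 ± 0.74 (log2 fold changes -0.79, -0.66 and -1.08, limma-trend adjusted p-values 0.000501, 0.00118 and 9.4e-05). Dact2 fell in E1-KO (-0.78) and E3-KO (-0.48, not passing under median-ratio scaling, limma-trend adjusted p = 0.0815), and Dact3 rose in E1-KO (0.58). Dvl3 was at 0.29 in E3-KO (limma-trend adjusted p = 0.0543) and was called higher under median-ratio scaling (0.45, limma-trend adjusted p = 0.0112).

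Of 14 tested genes of the destruction complex and its regulators, 6, 6 and 7 fell in the respective knockouts and 0 rose, a share of 42.9%, 42.9% and 50% lower against 23%, 22% and 30.8% of all tested genes. Median-ratio scaling left 5, 4 and 3 lower, with Usp7 higher in E3-KO (0.32, limma-trend adjusted p = 0.0431). The share lower in E3-KO was then 21.4%, near the 21% of all genes under that scaling. Tnks, a tankyrase that marks Axin for destruction, fell by 0.75, 0.63 and 0.46 on the log2 scale (limma-trend adjusted p-values 0.000722, 0.00171 and 0.00523). Fbxw11, a part of the ubiquitin ligase for phosphorylated beta-catenin, had -0.67, -0.50 and -0.34, the last not passing under median-ratio scaling (limma-trend adjusted p = 0.226). Amer1, which binds Apc and beta-catenin, had -0.41, -0.45 and -0.67, where E1-KO did not pass under median-ratio scaling (0.0517) and neither E1-KO nor E2-KO under quantile normalization (limma-trend adjusted p-values 0.103 and 0.0807). Ppp2r1a, a phosphatase scaffold, fell in E1-KO (-0.50) and E3-KO (-0.65).

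Nuclear partners of beta-catenin included genes that rose. Of 14 tested, 5, 3 and 5 rose in the respective knockouts, and 2 fell in each, namely Tle3 (-0.54, -0.66 and -0.65) and Ctbp1 (-0.41, -0.41 and -0.80), both co-repressor genes. The shares that rose were 35.7%, 21.4% and 35.7% against 15%, 14.2% and 13.9% of all tested genes, and the share that fell, 14.3% in each, was below that of all tested genes. The rises counted include Tle2, which was tested only because of its knockout values. The fit of all genes above 0 called 4, 3 and 5 of 15 higher and 1, 1 and 2 lower. Its shares of all genes were 8.92%, 8.14% and 10% higher and 13.8%, 13% and 19.1% lower. Cby1, an antagonist that binds beta-catenin, went from 11.4 ± 0.352 FPKM in WT to 23.7 ± 0.983, 21.95 ± 0.804 and 17.8 ± 0.154 (log2 fold changes 1.00, 0.89 and 0.60, limma-trend adjusted p-values 0.000232, 0.000425 and 0.00155). Aes, a short protein of the Groucho family of co-repressors that TCF proteins recruit, rose by 0.81, 0.93 and 0.49. Tle2, a full-length Groucho co-repressor, rose by 1.17, 1.30 and 0.87, from 0.821 and 0.148 FPKM in WT, and passed the filter through the knockouts. Bcl9l, a co-activator, rose in E3-KO (0.89). The names of Tle3 and Ctbp1, like those of Dvl3 and Usp7, were chosen after their values were seen.

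**Figure D4:**
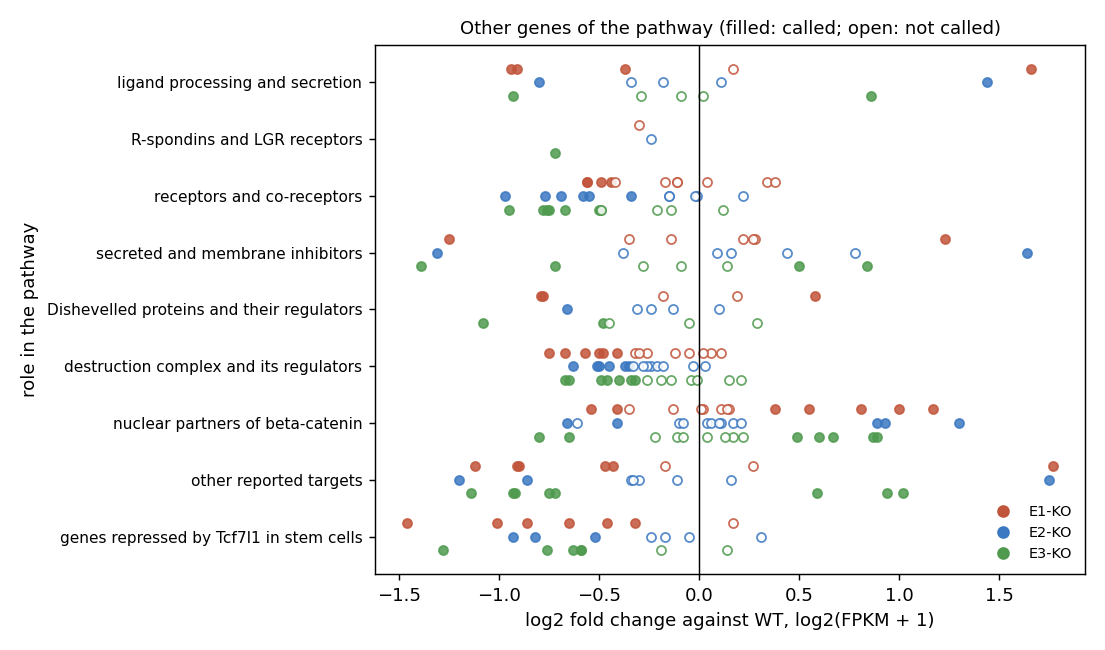
Each point is a gene of the wider list that passed the filter, placed by its log2 fold change against WT and by its role, and filled where it was called. The filled points of the receptors and of the destruction complex lie below 0, and the 3 points farthest to the right are Myc in E1-KO and E2-KO and Porcn in E1-KO.

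Other genes that are reported as WNT targets did not move as a block. Of 21 in the list, 8 passed the filter. In E1-KO 1 rose and 5 fell, in E2-KO 1 rose and 2 fell, and 3 rose and 5 fell in E3-KO. The shares of 12.5% higher and 25% lower in E2-KO were near those of all tested genes (14.2% and 22%). The shares lower in E1-KO and E3-KO, 62.5% in each, were above the 23% and 30.8% of all tested genes, with few genes behind them. Roles overlap, and Notum, lower in both, was counted among the genes that process ligands too. In E1-KO median-ratio scaling left 3 lower (37.5% against 19.2% of all genes) and quantile normalization 4 (50% against 18.9%). In E3-KO 5 stayed lower under both. Ephb3, an ephrin receptor, was at 11.3 and 12.3 FPKM in WT and between 4.07 and 5.18 in the 6 knockout samples (log2 fold changes -1.12, -1.20 and -1.14, limma-trend adjusted p-values 0.000636, 0.000512 and 0.000395). In contrast, Myc, a transcription factor of growth, was at 1.46 and 1.37 FPKM in WT, 7.35 and 7.13 in the E1-KO samples, 9.81 and 5.11 in those of E2-KO, and 4.22 and 3.08 in those of E3-KO. Its log2 fold changes were 1.77, 1.75 and 0.94 (limma-trend adjusted p-values 0.000946, 0.00107 and 0.0131). Id2, an inhibitor of bHLH factors, rose in E3-KO (1.02). The following 4 genes were named after their values had been seen. Tnfrsf19, a receptor of the TNF family, fell in all knockouts (-0.90, -0.86 and -0.75), and Ccnd1, a cyclin of the G1 phase, fell in E1-KO (-0.43) and E3-KO (-0.92). Jun, a part of the AP-1 factor, fell in E1-KO (-0.47) and rose in E3-KO (0.59). The last is T (Brachyury), a mesoderm factor. It was under the filter, at 1.70 and 2.09 FPKM in WT, 0.279 and 0.161 in the E1-KO samples, 0.0363 and 0.160 in those of E2-KO, and 0.184 and 0.348 in those of E3-KO. In the fit of all genes above 0 the log2 fold changes of T were -1.25, -1.40 and -1.19 (limma-trend adjusted p-values 0.0018, 0.00162 and 0.00131). Of the 21 listed targets, that fit called 2, 1 and 6 higher and 6, 3 and 6 lower in the respective knockouts. Its shares of all genes were 8.92%, 8.14% and 10% higher and 13.8%, 13% and 19.1% lower. Markers of primitive streak and mesendoderm (T, Mixl1, Eomes, Gsc, Foxa2 and Mesp1) summed to 12.8 to 14.2 FPKM in WT and 6.04 to 8.5 in the knockout samples, with Mixl1, Foxa2 and Mesp1 under 1 FPKM in every sample. Of these 6 markers, 1 (Gsc) was called lower in each knockout in the filtered fit. The list did not fall as a whole. All knockout samples lay below WT for T and Gsc, but above WT for Mixl1. Mixl1, under the filter, was at 0.093 and 0.16 FPKM in WT and between 0.34 and 0.92 in the knockout samples. Eomes was at 142%, 84.2% and 88.7% of the WT mean in E1-KO, E2-KO and E3-KO, and none of these changes was called. The 4 neural markers in the files summed to 6.79 to 8.54 FPKM in WT, 11.4 to 12.7 FPKM in the E1-KO samples, 8.74 to 9.41 in those of E2-KO, and 12.4 to 12.6 in those of E3-KO. Pax6 was called higher in E1-KO (1.24) and E2-KO (0.66), and Nes was called higher in E1-KO (0.47) and E3-KO (0.87). Pax6 passed the filter through E1-KO and E2-KO, since its means were 0.435 FPKM in WT and 0.777 in E3-KO. In the other direction, 1 neural marker was called lower in E2-KO. Map2 was at 32.7% and 43.1% of the WT mean in E2-KO and E3-KO, with 2.11 and 1.25 FPKM in the WT samples. Trophectoderm markers summed to 50.9 to 54 FPKM in WT, 33.3 to 38.5 over the samples of E1-KO and E2-KO, and 53.3 to 71.8 for E3-KO, where Gata3 and Krt8 were called higher (1.59 and 1.16). In E1-KO 2 trophectoderm markers were called lower and 1 higher, and in E2-KO 2 lower and 0 higher. Krt18 and Tfap2c were at 29.9% and 63.5% of the WT mean in E2-KO. Elf5 and Cdx2 of that list stayed under 1 FPKM in every sample. Of 6 primitive endoderm markers, 4 were in the files. They summed to 1.55 to 1.65 FPKM in WT, 0.737 to 1.12 over E1-KO and E2-KO, and 2.44 to 4.69 for E3-KO, where Gata6 was called higher (0.79). The others in the files, Sox17, Sox7 and Pdgfra, were under 1 FPKM in every sample. Gata6 passed the filter through E3-KO, with a mean of 2.74 FPKM there against 1.095, 0.347 and 0.495 in WT, E1-KO and E2-KO. The part of these lists in the falls of Sp5, Axin2 and Cdx1 was not tested.

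All 7 listed genes known as targets of repression by Tcf7l1 in stem cells were tested. Of these, 0 rose in any knockout, while 6, 3 and 5 fell in the respective knockouts (85.7%, 42.9% and 71.4%, against 23%, 22% and 30.8% of all tested genes). Median-ratio scaling called Nanog higher in E2-KO (0.39, limma-trend adjusted p = 0.0355) and Klf2 in E3-KO (0.31, limma-trend adjusted p = 0.0462). Tcl1, a co-activator of the kinase Akt, fell by 1.46, 0.93 and 1.28 on the log2 scale. Tfcp2l1, a transcription factor of the naive state, was at 159 and 165 FPKM in WT, 73.4 and 87.2 in the E1-KO samples, 87.0 and 96.6 in those of E2-KO, and 108 in both E3-KO samples (log2 fold changes -1.01, -0.82 and -0.59, limma-trend adjusted p-values 0.000331, 0.000921 and 0.0028). Klf2, a Kruppel-like factor, fell in E1-KO (-0.86, limma-trend adjusted p = 0.000923) and was at -0.05 and 0.14 in E2-KO and E3-KO (limma-trend adjusted p-values 0.743 and 0.374). Nr0b1, a nuclear receptor without a DNA-binding domain of the usual kind, fell in E1-KO (-0.65) and E3-KO (-0.76). Nr5a2, a nuclear receptor named after its values had been seen, fell in all 3 (-0.46, -0.52 and -0.59).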

How the data were processed

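Total RNA libraries of 8 samples (4 groups of 2) had been sequenced as paired-end reads. The authors deposited FPKM values per gene and sample. The submitters' processing notes name Trimmomatic 0.36, TopHat2 2.0.12, Cufflinks 2.2.1 and the build mm9; no header states the unit, and FPKM was inferred from Cufflinks and the values. Annotation and options are not given in the sources used here. Of 17812 identifiers (18774 rows), 17262 had a symbol; of 660 with several rows, 569 kept the row at the gene's place and 91 were left out. Positions are from GENCODE M21 (GRCm38), not the authors' build. limma-trend (limma 3.58.1, R 4.3.3) used log2(FPKM + 1), group as the only term, 4 residual degrees of freedom, a mean of at least 1 FPKM and Benjamini-Hochberg adjustment over 11267 genes, two-sided; adjusted p-values without a named tool come from it. On data simulated for E1-KO against WT with 11267 genes, 80.5% of 200 genes changed by 1 on the log2 scale were called. With a change of 0.5 the share was 0%. The simulation changed 200 genes, where 4283 were called in the data, so these shares do not carry over to the data. Same-numbered replicates did not deviate together (mean correlation 0.0049, from -0.0417 to 0.0888 over 6 pairs of groups). Named were the 10 genes, up to 4 called genes per role with the largest change (else the most abundant), and the 4 genes most like Sp5 and Axin2. Members and lists were chosen with earlier results of these data known. Alternatives covered pseudocount, filter, scaling, trend, samples fitted, replicate block, repeated rows and single replicates left out. No counting error could be given. Figures were drawn with matplotlib 3.10.9.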

Additional observations from a re-analysis of the deposited data

Results flagged for a closer look

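The response of Cdx1 differed between the lines when tested directly in limma-trend. E2-KO was below E1-KO by a log2 difference of -1.05 (adjusted p = 0.0438), a call not made with all genes above 0 (0.139), with a pseudocount of 0.1 in that fit (0.11) or with any replicate of these groups left out (0.0785 to 0.182). E3-KO was below E1-KO by -1.5 (adjusted p = 0.000737). Both E1-KO samples lay above the 4 samples of the other knockouts. The E1-KO replicates, at 10.3 and 15.3 FPKM, were farther apart than those of the other groups.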

How the results depend on the processing

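Of 20 called changes of single listed genes against WT, 14 were called under every alternative setting and with any 1 replicate left out; the other 6 were Znrf3 in the 3 knockouts, Tcf7 and Ctnnb1 in E2-KO and Tcf7l1 in E3-KO. Sp5, with a mean of 3.115 FPKM, was not tested with the filter at 5 FPKM, so its calls among the 14 do not cover that setting. Calls of Lef1 and Rnf43, which come from the fit of all genes above 0, are not among the 20. No change against WT turned its direction. With 1 replicate left out, listed genes called against WT numbered 5 to 6 in E1-KO, 4 (without WT replicate 2) to 7 in E2-KO and 5 to 6 in E3-KO; of the wider list 20 to 26, 18 to 27 and 26 to 38 were called, and of all genes 2023 to 2607, 1850 to 3712 and 2809 to 4559 (from 4283, 4070 and 5035). For all genes the lowest count came without WT replicate 2 in each comparison with WT. The lone sample left in a group is then assumed to vary like the others. For E2-KO against E1-KO the ranges were 0 to 0 listed genes, 0 to 0 of the wider list and 2 to 55 of all genes; for E3-KO against E1-KO 1 to 3, 8 to 16 and 1306 to 2609; for E3-KO against E2-KO 0 to 2, 7 to 14 and 982 to 1557. Here the added calls were Tcf7 and Tcf7l1 without E3-KO replicate 2.

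Between E2-KO and E1-KO, 1 listed gene was called as reported, 2 with a pseudocount of 0.1, and 0 with all genes above 0, with quantile normalization or with the samples of the pair alone. Of all genes, 94 were called, against 1 with all genes above 0, 58 with those averaging 5 FPKM or more, 31 with the replicate block and 1 with the pair alone. Of the wider list 1 was called, against 2 without trend and 0 with all genes above 0, the replicate block or the pair alone. Between E3-KO and E2-KO, 0 listed genes were called, and 1 (Sp5) with a pseudocount of 0.1, quantile normalization or no trend; of the wider list 19 were called, 12 when averaging 5 FPKM or more and 5 with the pair alone; of all genes 1754, and 726 with the pair alone. That filter at 5 FPKM, which tests fewer genes, left 18 genes of the wider list in E2-KO against WT (from 28) and 11 in E3-KO against E1-KO (from 19). With the replicate block the listed genes called against WT numbered 6, 7 and 6; the block changed the call of Znrf3 in E3-KO (-0.32, limma-trend adjusted p = 0.0636). Apart from construction, the cause of these moves was not tested.

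Differences between knockouts near 0 changed sign. Axin2 in E2-KO against E1-KO was at -0.01, and from -0.09 to 0.06 with 1 replicate left out. In E3-KO against E1-KO it was at -0.04, at 0.04 with quantile normalization, 0.05 with median-ratio scaling and from -0.17 to 0.10 with 1 replicate left out. In E3-KO against E2-KO it was at -0.02, at 0.06 and 0.05 with these scalings, and from -0.16 to 0.11 with 1 replicate left out. Tcf7l1 in E2-KO against E1-KO ranged from -0.11 to 0.01 with 1 replicate left out. Lef1, Nkd1 and Rnf43 are near or under 1 FPKM, where absolute depth is unknown, and the combination of a pseudocount of 0.1 with all genes above 0 was chosen after seeing the data.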
